A study of Mus with 9 samples.

Results

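Kidney RNA of 21-month-old mice treated with O304 was compared with that of 18-month-old mice, in order to see which transcripts still differed from the younger age after treatment. The comparison used the 3 libraries titled 21 mo/O304 and the 3 titled 18 mo, which were chosen by their labels and make up 6 of the 9 libraries of the series. The other 3 libraries, titled 21 mo, came from mice that received saline and entered no test of this comparison. All animals were male C57BL/6 mice, and unilateral nephrectomy was performed at 18 months of age in all of them. The mice of the 18 mo group were killed 1 week after the surgery, before the injections of the other groups began. The mice of the 21 mo/O304 group were injected intraperitoneally every day for 12 weeks with O304 at 10 mg/kg/day. Age, time after the nephrectomy, injection and drug all differed between both groups, so their effects cannot be told apart in this comparison. The labels number the libraries 1 to 3 within a group without saying that each came from its own mouse. All p-values therefore measure the spread between these libraries, which may be technical.

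O304 is a small molecule that keeps AMP-activated protein kinase (AMPK) in its active form. AMPK senses low cellular energy, favors fatty acid oxidation and autophagy and restrains lipid synthesis. The kidney tubule depends on the oxidation of fatty acids in mitochondria and peroxisomes, and many enzymes of this pathway are targets of the nuclear receptor PPARα. The same receptor is best known for the response of the liver to fasting.

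The counts on genes summed to between 16128242 and 17841310 in the 18 mo libraries and to between 16946163 and 18396725 in the 21 mo/O304 libraries. Values of single genes are given below as the counts of a gene scaled to library size after TMM normalization of the 6 libraries (CPM). Across genes, the Pearson correlation of log2 CPM was 0.977 to 0.984 between 18 mo libraries, 0.972 to 0.978 between 21 mo/O304 libraries and 0.960 to 0.976 between libraries of different groups. The range between groups thus overlapped with that of the 21 mo/O304 libraries and lay just below that of the 18 mo libraries. Variation between libraries of a group, as the biological coefficient of variation of edgeR, came to 17.6% at 18 months and 20.2% with O304, against 42.6% in the 21 mo group. Markers of the kidney tubule were abundant in every library, and Slc34a1, the phosphate transporter of the proximal tubule, was at 4420, 6056 and 5974 CPM in the 18 mo libraries and at 3925, 4747 and 5481 CPM in the 21 mo/O304 libraries. Replicate 1 of the 18 mo group stood apart in genes of the thick ascending limb and the collecting duct. Slc12a1, the sodium-potassium-chloride transporter of the thick limb, was at 2155 CPM there and at 366 to 844 CPM in the other 5 libraries. Aqp2, the water channel of principal cells, was at 312 CPM there and at 72.7 to 115 CPM in the others.

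Of 54532 genes in the table, 15308 passed the filter on low counts and were tested. The quasi-likelihood test of edgeR placed 22 genes past an adjusted p of 0.05, which is 0.144% of the genes tested. Of these, 10 rose in the 21 mo/O304 group (0.0653% of the genes tested) and 12 fell (0.0784%). In all 22 genes the 3 libraries of one group lay outside the range of the other, and the adjusted p lay between 0.0221 and 0.0452 (edgeR). Such separation was common over all genes tested, with 1950 separate and higher (12.7%) and 2165 separate and lower (14.1%). Statements below that a gene did not overlap between the groups are to be read against these shares. At an unadjusted p under 0.05 there were 3115 genes, or 20.3% of those tested, with 1444 higher (9.43%) and 1671 lower (10.9%). The median log2 fold change of all genes tested was −0.01, and 49.2% of the genes were fitted above 0. With DESeq2 on the same libraries, 795 of 14442 genes passed an adjusted p of 0.05 (5.5%), 366 of them higher (2.53%) and 429 lower (2.97%), and these included all 22 genes. Groups of genes are described below with the counts of edgeR first. Since edgeR called so few genes, the counts at an unadjusted p and those of DESeq2 follow, to be read against these percentages.

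**Figure D1:**
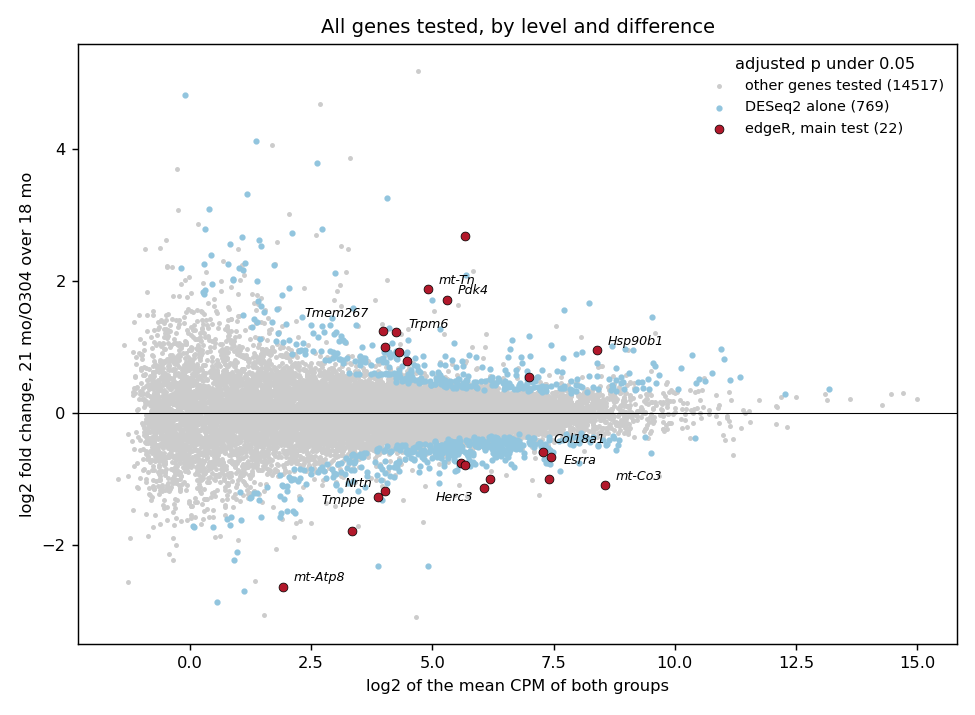
Log2 fold change of 21 mo/O304 over 18 mo for all 15308 genes tested (vertical axis) against the log2 of the mean CPM of both groups (horizontal axis), with 22 genes past an adjusted p of 0.05 by edgeR in red and 769 further genes that only DESeq2 called in blue. The gene mt-Atp8 is the lowest of the red points, and the red points lie above and below 0 in nearly equal number.

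The number of genes past the threshold rested on having all 6 libraries. Leaving out 18 mo replicate 1, 2 or 3 gave 4, 2 and 0 genes. Leaving out 21 mo/O304 replicate 1, 2 or 3 gave 1, 0 and 6. In these fits 2383 to 3127 genes had an unadjusted p under 0.05. All 22 genes kept their direction and an unadjusted p under 0.05 in each of these 6 fits. A model over all 9 libraries, which takes a single spread for each gene, called 0 genes for this comparison (edgeR), with 1536 genes at an unadjusted p under 0.05.

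A gene of fuel choice between glucose and fat rose. Pdk4, on chromosome 6 from 5483351 to 5496309 (minus strand, build GRCm38 here and below), encodes pyruvate dehydrogenase kinase 4, which holds pyruvate back from oxidation. It was at 16.0, 24.3 and 14.9 CPM at 18 months and at 65.8, 58.1 and 57.5 CPM with O304, a 3.29-fold rise (log2 fold change 1.72, SE 0.18, adjusted p = 0.0297, edgeR). The 3 treated libraries lay close together for Pdk4 and did not overlap with the 18 mo libraries. Among the fits that left out 1 library, Pdk4 passed the threshold only when 18 mo replicate 2 was dropped, at 1.99, and its log2 fold change lay between 1.59 and 1.75 in the other 5.

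**Figure D2:**
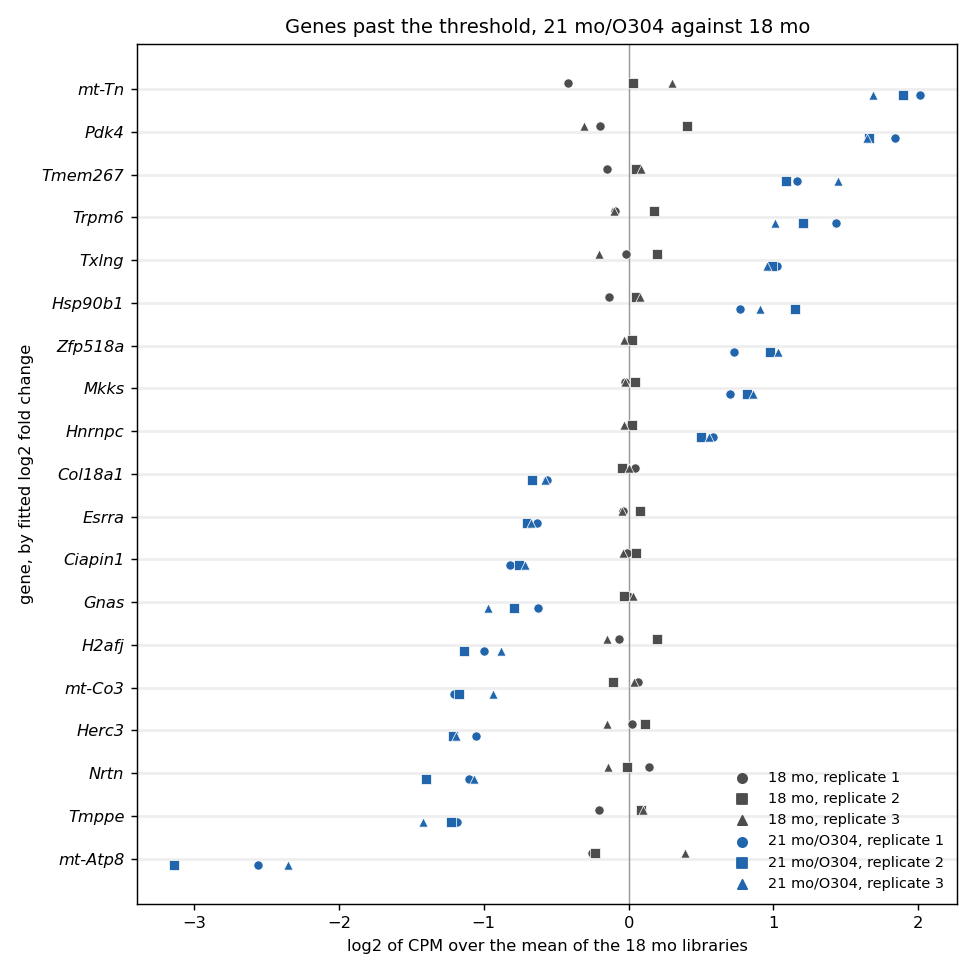
Of the 22 genes past the threshold of edgeR, 19 are drawn in order of fitted log2 fold change (vertical axis), with the log2 of CPM over the mean of the 18 mo libraries in each library (horizontal axis). Grey marks are the 18 mo libraries and blue marks the 21 mo/O304 libraries, with circles, squares and triangles for replicates 1 to 3. For each gene the blue marks lie outside the range of the grey marks.

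Pdk4 was 1 of the 2 members that passed the threshold of edgeR, both higher, among 25 tested genes of peroxisomes and of PPARα targets. At an unadjusted p under 0.05, 12 members were higher and 0 lower, and with DESeq2 7 were higher and 0 lower. The median log2 fold change of the list was 0.32, against −0.01 for all genes, and 22 of the 25 were fitted above 0. Angptl4, an inhibitor of lipoprotein lipase, was at 44.2, 84.2 and 68.6 CPM in the 18 mo group and at 148, 111 and 124 CPM in the 21 mo/O304 group (log2 fold change 0.96, SE 0.22, adjusted p = 0.0818, edgeR). Cyp4a10, which hydroxylates fatty acids at their far end, was at 208, 217 and 138 CPM and at 470, 321 and 271 CPM (log2 fold change 0.92, SE 0.23, adjusted p = 0.09996, edgeR). Neither gene overlapped between the groups, and both passed the threshold with DESeq2 but not with edgeR. The 23 tested genes of mitochondrial fatty acid oxidation had a median of 0.14 (0.064 when 21 mo/O304 replicate 1 was dropped), with 1 higher and 3 lower at an unadjusted p under 0.05, 0 and 1 with DESeq2, and 0 by the adjusted p of edgeR.

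Adipocyte markers were also higher in the treated libraries, and several PPAR targets are expressed in fat. Of 16 tested adipocyte markers edgeR called 0, while 11 were higher and 0 lower at an unadjusted p under 0.05 and 6 were higher with DESeq2. The median of the list was 0.96, and dropping 18 mo replicate 3 made it 1.80, dropping 21 mo/O304 replicate 2 made it 1.62, and it was 0.44 with at least 10 counts asked of every library. Adipoq, which encodes the hormone adiponectin and is made almost only by adipocytes, was at 0, 0 and 1.37 CPM in the 18 mo libraries and at 20.6, 1.89 and 14.5 CPM in the 21 mo/O304 libraries. Cfd, the adipocyte product adipsin, was at 0, 0 and 4.04 CPM and at 74.8, 4.07 and 73.7 CPM. Replicates 1 and 3 of the 21 mo/O304 group were thus high in both, and replicate 2 was near replicate 3 of the 18 mo group. Pdk4 was at 58.1 CPM in this replicate 2, against 24.3 CPM as the highest 18 mo value. Summed over the whole adipocyte list the CPM ranged from 1500 to 2203 in the 18 mo group and from 2014 to 2457 in the 21 mo/O304 group. The part of fat tissue in the values of Pdk4 and of the other PPARα targets was not tested. In bulk RNA, more cells of a type and more RNA per cell cannot be told apart.

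The chaperones of the endoplasmic reticulum and cytosol lay mostly above their 18-month level. Hsp90b1, on chromosome 10 from 86690209 to 86705509, encodes GRP94, the HSP90 of the endoplasmic reticulum. It was at 208, 236 and 242 CPM in the 18 mo group and at 389, 507 and 430 CPM in the 21 mo/O304 group, a 1.93-fold rise (log2 fold change 0.95, SE 0.12, adjusted p = 0.0343, edgeR). It overlaps 3 other annotated genes. Hsp90b1 was the only one of 31 tested members that edgeR called, while 20 members were higher and 4 lower at an unadjusted p under 0.05, and 17 were higher and 3 lower with DESeq2. The median log2 fold change of the list was 0.47. Hspa5, which encodes BiP, the HSP70 of the endoplasmic reticulum, was at 355, 347 and 453 CPM and at 647, 839 and 758 CPM (log2 fold change 0.96, SE 0.14, adjusted p = 0.0545, edgeR). Chordc1, a partner protein of HSP90, was at 37.5, 41.2 and 50.0 CPM and at 68.9, 88.0 and 73.2 CPM (0.84, SE 0.14, adjusted p = 0.0554, edgeR). For both genes every treated library was above every 18 mo library.

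The 3 members of the chaperone list that were lower with DESeq2 are classical stress-inducible genes. Hspa1b, which encodes an inducible cytosolic HSP70, was at 35.7, 76.3 and 37.7 CPM in the 18 mo group and at 11.9, 7.33 and 10.6 CPM in the 21 mo/O304 group (log2 fold change −2.32, SE 0.32, adjusted p = 0.0520, edgeR). Dnajb1, the HSP40 partner of HSP70, was at 58.7, 73.0 and 68.7 CPM and at 38.4, 42.3 and 41.4 CPM (−0.72, SE 0.11, adjusted p = 0.0545, edgeR). The third was Hspa1a, the near-identical neighbor of Hspa1b, which was named after its values were seen, at 13.3, 38.9 and 21.2 CPM and at 6.66, 2.98 and 4.96 CPM. Reads of Hspa1a and Hspa1b could have been split between both genes or lost in the counting. None of the 3 overlapped between the groups, and all were lower while the other HSP70 and HSP90 genes given above were higher. Among 18 tested genes of the unfolded protein and integrated stress response, edgeR called 0, 6 were higher and 1 lower at an unadjusted p under 0.05, and 3 were higher and 1 lower with DESeq2. Xbp1, a transcription factor of this response and of plasma cells, was at 130, 158 and 164 CPM and at 238, 354 and 207 CPM (0.82, SE 0.19, adjusted p = 0.0885, edgeR). Atf4, the main effector of the integrated stress response, was at 100, 95.2 and 108 CPM and at 75.4, 79.2 and 79.8 CPM (−0.37, SE 0.08, adjusted p = 0.0775, edgeR). Hsp90b1, Hspa5, Chordc1 and Xbp1 were all highest in replicate 2 of the 21 mo/O304 group, where Ighm, given below, and Igkc were also highest, while Ighg1 was highest in replicate 3. The part of plasma cells in these values was not tested.

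Trpm6, which encodes the magnesium channel of the distal convoluted tubule, rose 2.34-fold. The gene lies on chromosome 19 from 18749983 to 18892510. Its level was 10.7, 12.8 and 10.6 CPM in the 18 mo group and 30.7, 26.1 and 22.9 CPM in the 21 mo/O304 group (log2 fold change 1.23, SE 0.15, adjusted p = 0.0297, edgeR). Among 12 tested markers of the distal convoluted and connecting tubule it was the only call of edgeR, with 4 higher and 0 lower at an unadjusted p under 0.05 and 2 higher with DESeq2. The median of the list was 0.40, and 0.12 without replicate 1 of the 21 mo/O304 group. Wnk1, a kinase that regulates sodium chloride transport there, was at 271, 370 and 352 CPM and at 440, 520 and 455 CPM (0.51, SE 0.13, adjusted p = 0.102, edgeR). Slc12a3, the sodium chloride transporter that defines the distal convoluted tubule, was at 600, 848 and 759 CPM and at 777, 742 and 667 CPM, with overlap between the groups (−0.01, SE 0.14, adjusted p = 0.969, edgeR). Slc12a3 is named here as the defining marker of the segment.

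A further 5 genes that rose encode proteins of other kinds. Tmem267, a transmembrane protein, rose 2.36-fold from 9.38 ± 0.8005 to 22.2 ± 3.00 CPM (SD, n = 3 each). Txlng, which encodes taxilin gamma, rose 1.99-fold from 10.9 ± 1.49 to 21.6 ± 0.517 CPM, and Zfp518a, a zinc finger protein, rose 1.88-fold from 13.7 ± 0.270 to 25.8 ± 2.79 CPM (SD, n = 3 each). Mkks, a chaperonin-like protein needed for the assembly of a complex of the primary cilium, rose 1.73-fold from 16.3 ± 0.457 to 28.2 ± 1.59 CPM (SD, n = 3 each). Hnrnpc, a nuclear RNA-binding protein, rose 1.46-fold from 104 ± 2.27 to 152 ± 4.20 CPM (SD, n = 3 each), the smallest rise called. The adjusted p of these 5 genes lay between 0.0297 and 0.0452 (edgeR). All but Hnrnpc overlap other annotated genes. A mitochondrial tRNA gene that also rose is described with the mitochondrial genes.

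Esrra, a nuclear receptor that drives genes of mitochondrial respiration, fell. It lies on chromosome 19 from 6910977 to 6921813, and it overlaps Trmt112 and Mir6990. Its level was 208, 225 and 207 CPM in the 18 mo group and 137, 131 and 133 CPM in the 21 mo/O304 group, a 1.59-fold fall (log2 fold change −0.67, SE 0.08, adjusted p = 0.0297, edgeR). Every treated library lay below every 18 mo library. Of 15 tested genes of mitochondrial biogenesis, Esrra was the only call of edgeR, with 3 higher and 3 lower at an unadjusted p under 0.05. Its usual partner Ppargc1a, the coactivator PGC-1α, was at 61.4, 48.8 and 52.7 CPM and at 60.5, 54.5 and 54.4 CPM (log2 fold change 0.06, SE 0.11, adjusted p = 0.809, edgeR), with overlap between the groups. Gabpa, another regulator of respiratory genes, was at 42.3, 45.6 and 41.7 CPM and at 55.6, 66.7 and 58.1 CPM (0.48, SE 0.10, adjusted p = 0.0729, edgeR).

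Nuclear genes for subunits of the respiratory chain lay mostly below their 18-month level. Of 36 tested subunits of complex I, edgeR called 0, while 0 were higher and 19 lower at an unadjusted p under 0.05 and 10 were lower with DESeq2. The median log2 fold change was −0.24, and 30 of the 36 were fitted below 0. Of 39 tested subunits of complexes II to V, edgeR called 0, 0 were higher and 14 lower at an unadjusted p under 0.05, and 10 were lower with DESeq2, with a median of −0.16 that was −0.11 when 18 mo replicate 2 was dropped. Averaged over the complex I subunits, the treated libraries lay at −0.28, −0.40 and −0.14 and the 18 mo libraries at 0.04, 0.04 and −0.07 (log2 CPM from the mean at 18 months), without overlap. Ndufb8, a subunit of complex I, was at 216, 211 and 188 CPM in the 18 mo group and at 122, 105 and 137 CPM in the 21 mo/O304 group (log2 fold change −0.76, SE 0.11, adjusted p = 0.0545, edgeR). Cox6a1, a subunit of cytochrome c oxidase, was at 914, 893 and 828 CPM and at 571, 537 and 615 CPM (−0.61, SE 0.10, adjusted p = 0.0545, edgeR). Uqcr11, a subunit of complex III, was at 283, 259 and 226 CPM and at 124, 117 and 175 CPM (−0.89, SE 0.16, adjusted p = 0.0663, edgeR). In all 3 genes replicate 2 was the lowest and replicate 3 the highest of the treated libraries, and none of the treated libraries reached the 18 mo range.

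Mitochondrially encoded genes did not move one way. Of 13 mRNAs of the mitochondrial genome, edgeR called 2, both lower, while 3 were higher and 3 lower at an unadjusted p under 0.05 and with DESeq2 alike. The mRNA of mt-Co3, a core subunit of cytochrome c oxidase, fell from 535, 474 and 526 CPM to 221, 227 and 268 CPM, a 2.14-fold fall (log2 fold change −1.10, SE 0.10, adjusted p = 0.0221, edgeR). The mRNA of mt-Atp8, a small subunit of ATP synthase, fell from 5.48, 5.58 and 8.57 CPM to 1.11, 0.744 and 1.28 CPM, a 6.24-fold fall (−2.64, SE 0.32, adjusted p = 0.0298, edgeR). Both genes overlap mt-Atp6 on the same strand, which was at 437, 288 and 339 CPM and at 247, 259 and 328 CPM with overlap between the groups (−0.35, SE 0.17, adjusted p = 0.285, edgeR). In contrast, mt-Nd6, the complex I subunit read from the other strand, was at 1808, 2339 and 2189 CPM and at 3248, 2945 and 3048 CPM (0.54, SE 0.13, adjusted p = 0.0905, edgeR). The summed CPM of all 13 mRNAs was 90595, 88738 and 87690 in the 18 mo libraries and 108030, 105145 and 95503 in the 21 mo/O304 libraries, higher in all 3.

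The genes mt-Co3 and mt-Atp8, at 8607 to 9390 and 7766 to 7969 of the mitochondrial genome, lie in a stretch that has near-identical copies on chromosome 1. There, 7 annotated pseudogenes lie between 24611535 and 24616197. How the authors treated reads that fit both places is not given in the sources used here, so both falls are uncertain. Both genes had few counts beside mt-Co1, and whether their mRNAs were scarce or reads were lost in the counting was not tested. The level of mt-Co1 was 30084, 30383 and 30888 CPM in the 18 mo group and 37287, 37187 and 31394 CPM with O304. Summed over the 7 copies, the CPM was 1424, 1287 and 1407 in the 18 mo group and 1069, 1306 and 1445 in the 21 mo/O304 group, with overlap. The copies differed among themselves, and edgeR called 0 of them. Gm28661 was at 477, 437 and 429 CPM and at 263, 293 and 399 CPM (log2 fold change −0.49, SE 0.15, adjusted p = 0.136, edgeR) and passed the threshold with DESeq2. Gm28439 was at 158, 137 and 154 CPM and at 108, 135 and 118 CPM (−0.32, SE 0.11, adjusted p = 0.156, edgeR). Gm28437 was at 224, 210 and 179.8 CPM and at 245, 241 and 226 CPM (0.21, SE 0.10, adjusted p = 0.272, edgeR). Gm28661 and Gm28439 were lower and Gm28437 higher in every treated library. By their order along the chromosome, Gm28437 takes the place of mt-Co3, which fell, and Gm28661 that of mt-Co2, which was also lower. Gm29216 and Gm28439, at the ends of the stretch, take the places of parts of mt-Co1 and mt-Nd4. The copy in the place of mt-Co3 thus moved against it and by less, with a log2 fold change of 0.21 against −1.10. Sequences of the genes and copies were not compared. Whether reads were divided differently between mt-Co3 and Gm28437 in the groups was not tested. The tRNA gene mt-Tn, at 5089 to 5159 of the mitochondrial genome and named although it is not protein coding, rose from 9.66, 13.2 and 15.9 CPM to 52.1, 48.0 and 41.6 CPM, a 3.65-fold rise (log2 fold change 1.87, SE 0.18, adjusted p = 0.0221, edgeR). Its neighbor mt-Tc was at 8.76, 16.2 and 19.7 CPM and at 55.6, 48.4 and 42.3 CPM (1.71, SE 0.26, adjusted p = 0.0545, edgeR). Of 12 tested mitochondrial tRNAs 1 was called by edgeR, and 5 were higher and 0 lower with DESeq2 and at an unadjusted p under 0.05. The 2 mitochondrial rRNAs were higher in every treated library, with mt-Rnr2 at 820, 894 and 1052 CPM and at 1420, 1847 and 1822 CPM (0.88, SE 0.14, adjusted p = 0.0554, edgeR).

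**Figure D3:**
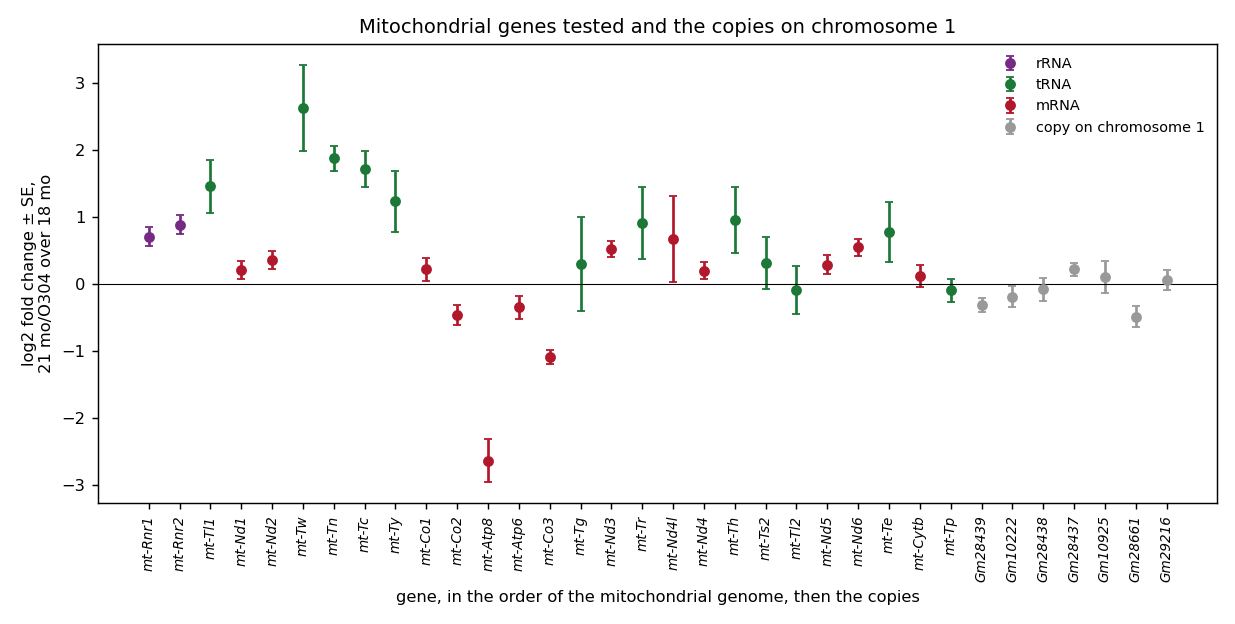
Log2 fold change of 21 mo/O304 over 18 mo with its SE (vertical axis) for the tested genes of the mitochondrial genome in their order and for the 7 copies on chromosome 1 (horizontal axis), colored by kind of gene. The mRNAs mt-Co2, mt-Atp8, mt-Atp6 and mt-Co3 lie side by side and are the only mRNAs below 0, while both rRNAs and the tRNAs from mt-Tw to mt-Ty lie above 0. The copied stretch takes in these mRNAs below 0, so their falls are uncertain, and also mt-Nd3 and mt-Nd4l, which lie above 0. By the order of the copies it also takes in parts of mt-Co1 and mt-Nd4, which lie above 0 as well.

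A gene of the ubiquitin system and a histone gene also fell. Herc3, a ubiquitin ligase on chromosome 6 from 58831465 to 58920398, fell from 94.0, 99.7 and 83.4 CPM to 44.5, 39.9 and 40.5 CPM, a 2.22-fold fall (log2 fold change −1.15, SE 0.10, adjusted p = 0.0221, edgeR). H2afj, on chromosome 6 from 136808244 to 136810074, encodes the histone variant H2A.J and fell from 217, 260 and 204 CPM to 114, 103 and 123 CPM, a 2.00-fold fall (−1.002, SE 0.12, adjusted p = 0.0297, edgeR). In both genes every treated library lay below every 18 mo library.

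Other genes that fell were Tmppe, Nrtn, Gnas, Ciapin1 and Col18a1. Tmppe, a membrane protein of the phosphoesterase family that lies within Glb1 on the same strand, so that reads could belong to either, fell from 20.8 ± 2.37 to 8.60 ± 0.732 CPM, a 2.42-fold fall, and Nrtn, which encodes the growth factor neurturin, fell from 22.6 ± 2.22 to 9.93 ± 1.22 CPM, a 2.27-fold fall (SD, n = 3 each). Gnas, which encodes the stimulatory G protein subunit downstream of hormone receptors, fell from 64.4 ± 1.45 to 37.2 ± 4.43 CPM, a 1.73-fold fall (SD, n = 3 each). Gnas overlaps 5 other annotated genes, 3 of them on the same strand, so that reads could belong to either. Ciapin1, a protein of cytosolic iron-sulfur cluster assembly, fell from 60.6 ± 1.93 to 35.7 ± 1.23 CPM, a 1.70-fold fall (SD, n = 3 each). The adjusted p of these 4 genes lay between 0.0297 and 0.0452 (edgeR).

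Col18a1 encodes collagen XVIII, a basement membrane collagen from which endostatin is cut, and lies on chromosome 10 from 77052178 to 77166548. It fell from 193, 181 and 187 CPM to 127, 118 and 125 CPM, a 1.52-fold fall (log2 fold change −0.60, SE 0.08, adjusted p = 0.0359, edgeR). It was the only call of edgeR among 25 tested collagen genes, of which 0 were higher and 11 lower at an unadjusted p under 0.05 and 5 were lower with DESeq2. The median of the list was −0.37, with −0.62 when 21 mo/O304 replicate 3 was dropped, and 21 of the 25 were fitted below 0. Col4a4, a chain of the glomerular basement membrane, was at 242, 240 and 238 CPM in the 18 mo group and at 200, 180 and 195 CPM in the 21 mo/O304 group (−0.32, SE 0.08, adjusted p = 0.0934, edgeR). Col1a1, the main fibrillar collagen of scar tissue, was at 19.5, 21.9 and 32.7 CPM and at 9.49, 16.0 and 12.1 CPM (−0.98, SE 0.24, adjusted p = 0.0979, edgeR). In both genes every treated library lay below every 18 mo library. Replicate 3 of the 18 mo group was the highest of the series of 6 for Col1a1. Averaged over the collagen list, the treated libraries lay at −0.78, −0.30 and −0.12 (log2 CPM from the mean at 18 months). The 18 mo libraries lay at −0.19, −0.09 and 0.28, so the groups overlapped. Markers of fibroblasts, myofibroblasts and pericytes lay on both sides. Of 14 tested, edgeR and DESeq2 called 0, 2 were higher and 2 lower at an unadjusted p under 0.05, and the median was −0.14 and changed sign in 4 of 16 settings.

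Genes of cell cycle and DNA replication lay below their level at 18 months. Of 46 tested, edgeR called 0, while 0 were higher and 18 lower at an unadjusted p under 0.05 and 8 were lower with DESeq2. The median log2 fold change was −0.59, with −0.34 on log2(FPKM + 1) and −0.77 when 21 mo/O304 replicate 2 was dropped, and 41 of the 46 were fitted below 0. Tk1, the thymidine kinase of dividing cells, was at 10.01, 10.1 and 11.8 CPM in the 18 mo group and at 5.44, 5.67 and 5.69 CPM in the 21 mo/O304 group (−0.93, SE 0.16, adjusted p = 0.0614, edgeR). Mcm6, a subunit of the replicative helicase, was at 32.5, 29.6 and 29.3 CPM and at 22.2, 23.02 and 20.6 CPM (−0.47, SE 0.10, adjusted p = 0.0729, edgeR). Foxm1, a transcription factor of mitotic genes, was at 2.68, 2.61 and 3.28 CPM and at 1.22, 1.26 and 1.22 CPM (−1.21, SE 0.28, adjusted p = 0.0835, edgeR). All 3 genes were separate between the groups. The 18 mo mice were killed 1 week after nephrectomy, and time after surgery, age and drug cannot be told apart here.

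The study assayed the products of 18 genes in ageing mice or in cultured human tubule cells, and 17 of them were tested here. For Tfam and H2afx the paper describes protein assays in the cells only. Cdkn2a did not pass the filter on low counts. None of the 17 passed the threshold of edgeR, 3 were higher and 2 lower at an unadjusted p under 0.05, and 1 was higher with DESeq2. Genes of mitochondrial fatty acid oxidation and its regulator overlapped between the groups, with a log2 fold change of 0.22 for Cpt1a (SE 0.10, adjusted p = 0.258), 0.26 for Cpt2 (SE 0.14, adjusted p = 0.341) and 0.24 for Ppara itself (SE 0.18, adjusted p = 0.490, edgeR for all). Plin2, which encodes the lipid droplet protein ADRP, was at 99.5, 110 and 102 CPM and at 109, 120 and 113 CPM (0.14, SE 0.08, adjusted p = 0.385, edgeR).

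Both catalytic subunits of AMPK were higher in every treated library, without passing the threshold. Prkaa1 (α1) was at 31.3, 29.6 and 29.3 CPM and at 36.9, 35.9 and 35.2 CPM (log2 fold change 0.26, SE 0.09, adjusted p = 0.157, edgeR). Prkaa2 (α2) was at 170, 224 and 189 CPM and at 225, 269 and 242 CPM (0.33, SE 0.12, adjusted p = 0.180, edgeR). Camkk2, a kinase that activates AMPK, was lower in every treated library, at 20.6, 18.8 and 20.04 CPM and at 15.03, 15.6 and 16.1 CPM (−0.35, SE 0.10, adjusted p = 0.128, edgeR). Over 14 tested genes of AMPK subunits and upstream kinases, edgeR and DESeq2 called 0, 4 were higher and 2 lower at an unadjusted p under 0.05, and the median was 0.00, with a change of sign in 6 of 16 settings.

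Genes of autophagy showed members on both sides. Mtor, the kinase that restrains autophagy, was at 254, 245 and 264 CPM in the 18 mo group and at 233, 213 and 203 CPM in the 21 mo/O304 group (−0.23, SE 0.09, adjusted p = 0.188, edgeR). The log2 fold change was 0.08 for Map1lc3b, which encodes LC3B (SE 0.08, adjusted p = 0.635), and −0.01 for Sqstm1, which encodes p62 (SE 0.11, adjusted p = 0.971, edgeR for both), and both overlapped between the groups. Of 46 core autophagy genes, edgeR called 0, 6 were higher and 6 lower at an unadjusted p under 0.05, and 2 were higher with DESeq2. Rb1cc1, the scaffold FIP200 of the initiating complex, was at 48.8, 57.4 and 54.8 CPM and at 76.3, 73.7 and 74.2 CPM (0.48, SE 0.09, adjusted p = 0.0678, edgeR). Gabarapl1, an LC3 relative, was at 655, 687 and 632 CPM and at 1012, 766 and 917 CPM (0.45, SE 0.12, adjusted p = 0.104, edgeR). Ambra1, a regulator of initiation, was at 48.9, 53.04 and 49.0 CPM and at 38.5, 42.1 and 36.7 CPM (−0.36, SE 0.09, adjusted p = 0.101, edgeR).

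The other assayed genes concern mitochondria, fibrosis and ageing. Tomm20, an import receptor of the outer mitochondrial membrane, was at 214, 221 and 213 CPM in the 18 mo group and at 166, 179 and 194 CPM in the 21 mo/O304 group (log2 fold change −0.27, SE 0.09, adjusted p = 0.144, edgeR), with no overlap. Tfam, the packaging factor of mitochondrial DNA, was at 0.11 (SE 0.09, adjusted p = 0.561) and Ctnnb1, which encodes β-catenin, at −0.09 on the same scale (SE 0.08, adjusted p = 0.601, edgeR for both). Fn1, which encodes fibronectin, was at 18.3, 19.2 and 33.6 CPM and at 12.8, 20.5 and 20.1 CPM (−0.42, SE 0.27, adjusted p = 0.420, edgeR). Acta2, which encodes α-smooth muscle actin, was at 21.99, 19.8 and 25.8 CPM and at 9.15, 21.4 and 43.5 CPM, so that the treated libraries spanned the whole 18 mo range (0.13, SE 0.45, adjusted p = 0.901, edgeR). Without replicate 3 of the 21 mo/O304 group its log2 fold change was −0.56. H2afx, the histone whose phosphorylated form marks DNA damage, was at 12.4, 14.3 and 18.8 CPM and at 15.9, 13.1 and 14.3 CPM (−0.07, SE 0.17, adjusted p = 0.849, edgeR). Over 22 tested genes of cell cycle inhibition and senescence, edgeR called 0, 4 were higher and 1 lower at an unadjusted p under 0.05, and 1 was higher with DESeq2. The median was 0.12, and it was 0.0084 when 21 mo/O304 replicate 3 was dropped and 0.21 when 18 mo replicate 3 was dropped. Of the 22 genes, 14 were fitted above 0 and 8 below. Averaged over this list, the treated libraries lay at 0.13, 0.20 and 0.30 (log2 CPM from the mean at 18 months). The 18 mo libraries lay at −0.01, −0.03 and 0.04, without overlap.

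Markers of immune cells lay above their 18-month level in the treated kidneys. Of 23 tested markers of macrophages and dendritic cells, edgeR called 0, while 10 were higher and 1 lower at an unadjusted p under 0.05 and 5 were higher with DESeq2. The median log2 fold change was 0.65, and 0.37 on log2(FPKM + 1), and the summed CPM ranged from 782 to 1069 in the 18 mo group and from 1262 to 1489 in the 21 mo/O304 group. Cx3cr1, the fractalkine receptor of resident macrophages, was at 12.3, 7.19 and 10.5 CPM in the 18 mo group and at 27.4, 23.6 and 21.8 CPM in the 21 mo/O304 group (1.28, SE 0.20, adjusted p = 0.0545, edgeR). Mrc1, the mannose receptor, was at 5.90, 3.92 and 5.46 CPM and at 11.7, 14.0 and 20.5 CPM (1.59, SE 0.25, adjusted p = 0.0545, edgeR). Ccr2, the chemokine receptor of recruited monocytes, was at 11.3, 13.8 and 18.0 CPM and at 29.2, 37.7 and 25.9 CPM (1.11, SE 0.20, adjusted p = 0.0659, edgeR). All 3 genes were higher in every treated library. In contrast, Csf1r, the growth factor receptor that defines the macrophage lineage, overlapped, at 75.7, 57.1 and 56.2 CPM and at 71.8, 67.3 and 49.6 CPM (−0.0028, SE 0.17, adjusted p = 0.995, edgeR). Csf1r was named as a defining marker of the list.

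Lymphocyte markers rested more on single libraries. Of 21 tested markers of B and plasma cells, edgeR called 0, while 12 were higher and 1 lower at an unadjusted p under 0.05 and 9 were higher with DESeq2, with a median of 1.21. Ighm, the heavy chain of IgM, was at 27.95, 13.96 and 17.1 CPM in the 18 mo group and at 38.3, 149 and 63.7 CPM in the 21 mo/O304 group (log2 fold change 2.09, SE 0.48, adjusted p = 0.0838, edgeR). Ighg1, the heavy chain of IgG1, was at 5.78, 0.356 and 3.39 CPM and at 22.5, 29.1 and 39.3 CPM (3.25, SE 0.61, adjusted p = 0.0678, edgeR). Replicate 2 of the 18 mo group was the lowest for both genes. The 21 tested T and NK cell markers were all fitted above 0, with a median of 0.78 that was 0.22 when 21 mo/O304 replicate 2 was dropped, but edgeR called 0, 2 were higher at an unadjusted p under 0.05 and 1 was higher with DESeq2. Ccl5, a chemokine of these cells, was at 3.52, 4.22 and 4.97 CPM and at 4.33, 20.3 and 7.40 CPM, with only replicate 2 and replicate 3 of the 21 mo/O304 group above the 18 mo range. Markers of endothelium were not called in either direction by edgeR, by DESeq2 or at an unadjusted p under 0.05 (0 of 18 tested).

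**Figure D4:**
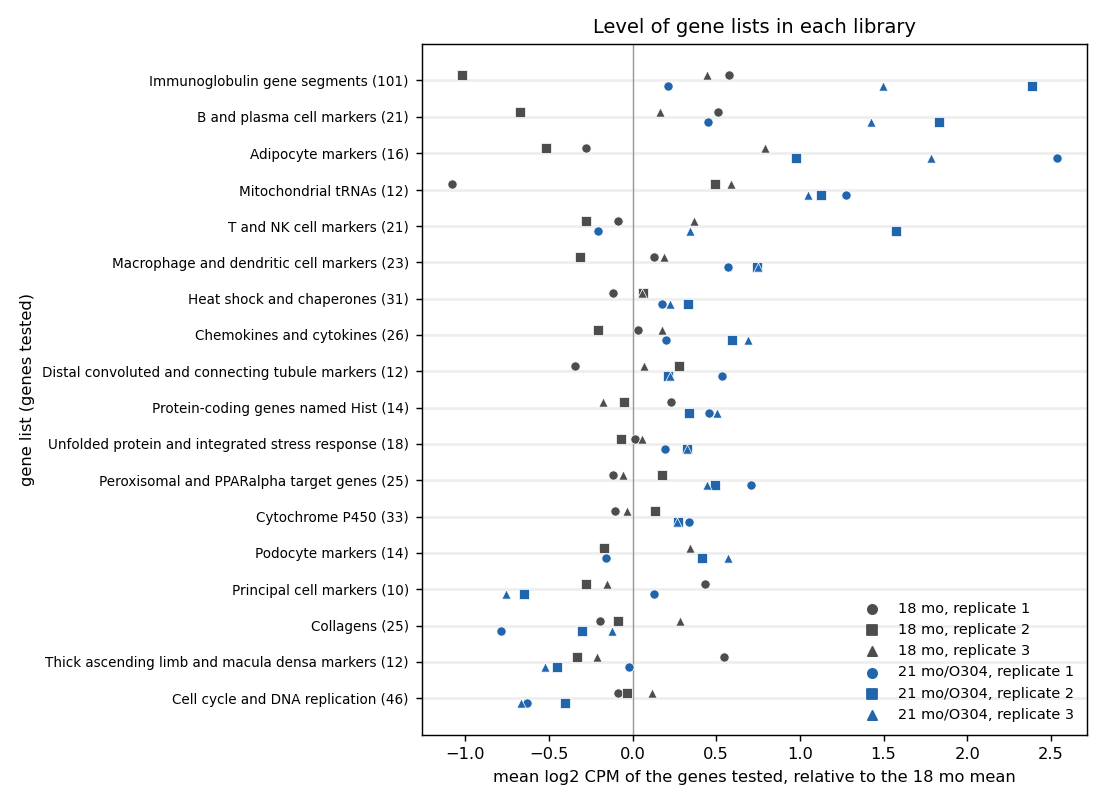
Mean log2 CPM of the tested genes of a list relative to the 18 mo mean (horizontal axis) in each library, for the lists with at least 10 genes tested and a median log2 fold change of at least 0.3 in size (vertical axis, with the number of genes tested). Grey marks are the 18 mo libraries and blue marks the 21 mo/O304 libraries, with circles, squares and triangles for replicates 1 to 3. The groups are apart for chaperones, PPARα targets, macrophage markers, adipocyte markers and cell cycle genes. In the immunoglobulin, B and plasma cell and T cell lists replicate 1 of the 21 mo/O304 group lies within the 18 mo range. In the T cell list replicate 3 does so as well, and only replicate 2 lies above it. The groups also overlap in the collagen list, where replicate 3 of the 21 mo/O304 group lies above replicate 1 of the 18 mo group.

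Enzymes of detoxification lay above their level at 18 months. Of 33 tested cytochrome P450 genes, edgeR called 0, 10 were higher and 2 lower at an unadjusted p under 0.05, and 4 were higher with DESeq2. Of 38 tested conjugating enzymes, edgeR called 0, 12 were higher and 0 lower at an unadjusted p under 0.05, and 5 were higher with DESeq2. The medians were 0.31 and 0.20, and the second was 0.30 when 18 mo replicate 2 was dropped. Cyp2j5, an epoxygenase of arachidonic acid, was at 1108, 1242 and 1182 CPM in the 18 mo group and at 1645, 1602 and 1588 CPM in the 21 mo/O304 group (log2 fold change 0.45, SE 0.10, adjusted p = 0.0748, edgeR). Ugt2b37, a glucuronosyltransferase, was at 53.8, 87.1 and 93.2 CPM and at 132, 172 and 222 CPM (1.17, SE 0.24, adjusted p = 0.0718, edgeR). Sult1d1, a sulfotransferase, was at 503, 654 and 510 CPM and at 1149, 814 and 837 CPM (0.75, SE 0.17, adjusted p = 0.0773, edgeR). None of these 3 overlapped between the groups. Members of the P450 and transferase families share long stretches of sequence, so reads could have been split between them.

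Both enzymes that make and break active vitamin D were higher in every treated library. Cyp27b1, which makes it, was at 1.91, 2.91 and 5.73 CPM in the 18 mo group and at 6.99, 9.05 and 8.44 CPM in the 21 mo/O304 group (log2 fold change 1.21, SE 0.37, adjusted p = 0.133, edgeR). Cyp24a1, which breaks it down, was at 66.1, 118 and 136 CPM and at 173, 286 and 482 CPM (1.56, SE 0.38, adjusted p = 0.0950, edgeR). Slc20a1, a phosphate transporter, was at 22.8, 29.9 and 27.8 CPM and at 42.3, 50.2 and 42.1 CPM (0.74, SE 0.13, adjusted p = 0.0630, edgeR). Of 18 tested genes of Klotho, vitamin D and phosphate handling, edgeR called 0, 8 were higher and 0 lower at an unadjusted p under 0.05, and 3 were higher with DESeq2, with a median of 0.20 that was 0.32 when 18 mo replicate 2 was dropped.

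Genes of the cholesterol synthesis list lay the other way. Of 22 tested, edgeR called 0, 2 were higher and 7 lower at an unadjusted p under 0.05, and 4 were lower with DESeq2. The median was −0.25, and it was −0.14 or −0.16 when 18 mo replicate 1 or 2 was dropped. Mvk, the mevalonate kinase, was at 22.1, 17.6 and 17.6 CPM in the 18 mo group and at 10.8, 8.53 and 10.4 CPM in the 21 mo/O304 group (log2 fold change −0.95, SE 0.15, adjusted p = 0.0545, edgeR). Srebf2, the transcription factor that drives the pathway, was at 128, 121 and 122 CPM and at 99.2, 93.3 and 102 CPM (−0.33, SE 0.08, adjusted p = 0.0878, edgeR). No treated library reached the 18 mo range in either gene. Among markers of the proximal tubule, Pck1, the gatekeeper enzyme of gluconeogenesis, was at 941, 1731 and 1379 CPM and at 2652, 2421 and 2838 CPM (0.97, SE 0.21, adjusted p = 0.0748, edgeR), and Slc9a3, the sodium-proton exchanger of the brush border, was at 165, 159 and 157 CPM and at 118, 113 and 116 CPM (−0.47, SE 0.07, adjusted p = 0.0545, edgeR). Of 29 tested markers of its S1 and S2 segments, edgeR called 0, and 4 were higher and 4 lower at an unadjusted p under 0.05. With DESeq2 2 were higher and 3 lower. The median was −0.02 and changed sign in 5 of 16 settings.

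The saline-treated 21 mo libraries were set beside these genes on a common scale of all 9 libraries. Both comparisons given here share libraries with the one above, so their values stand side by side and are not independent. In the model over 9 libraries, O304 against 21 mo placed 0 genes past the threshold (edgeR), with 3289 at an unadjusted p under 0.05 (20.7%), and 21 mo against 18 mo placed 3 genes (0.0189%). For the 22 genes, the adjusted p of O304 against 21 mo lay between 0.175 and 0.958, and 8 had an unadjusted p under 0.05. For 21 mo against 18 mo, the smallest adjusted p among the 22 was 0.0626, and 18 had an unadjusted p under 0.05, as had 4147 of all genes tested (26.1%, edgeR for all).

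The saline-treated libraries took different places from gene to gene. Trpm6 was at 11.8, 8.13 and 14.7 CPM in the 21 mo libraries, on this scale, below every O304 library (log2 fold change of O304 over 21 mo 1.26, SE 0.22, unadjusted p = 0.000303, adjusted p = 0.175, edgeR). Its log2 fold change of 21 mo over 18 mo was −0.03 (adjusted p = 0.943, edgeR). Col18a1 was at 126, 311 and 408 CPM in the 21 mo group, where replicate 1 was within the range of the O304 libraries (−1.13 for O304 over 21 mo, SE 0.35, adjusted p = 0.176, edgeR). Esrra was at 123, 91.5 and 70.0 CPM in the 21 mo group, below every O304 library as well as every 18 mo library (0.56 for O304 over 21 mo, SE 0.19, adjusted p = 0.187, edgeR).

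Pdk4 was at 101, 85.4 and 19.9 CPM in the 21 mo group. Replicates 1 and 2 of the saline-treated group were thus far above the 18 mo libraries, and replicate 3 was within their range. The log2 fold change of O304 over 21 mo was −0.12 for Pdk4 (SE 0.48, adjusted p = 0.896, edgeR). Hsp90b1 was at 344, 402 and 245 CPM in the 21 mo group (0.48, SE 0.21, adjusted p = 0.234, edgeR). Herc3 was at 60.8, 46.9 and 43.0 CPM (−0.21, SE 0.15, adjusted p = 0.410, edgeR), and its log2 fold change of 21 mo over 18 mo was −0.93 (adjusted p = 0.0626, edgeR). For H2afj and mt-Co3 the log2 fold change of 21 mo over 18 mo was −1.34 and −1.20, each with an adjusted p of 0.0626 (edgeR).

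**Figure D5:**
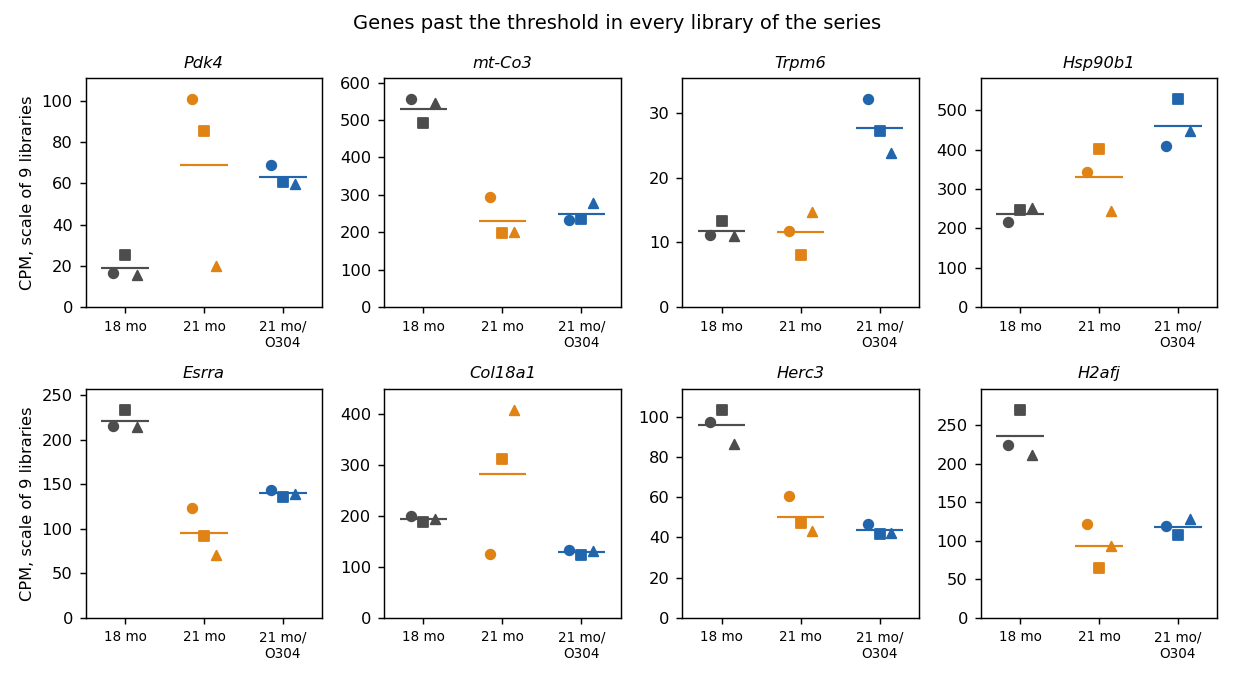
CPM on the common scale of 9 libraries (vertical axes, from 0) of 8 of the genes past the threshold, in the 18 mo, 21 mo and 21 mo/O304 libraries (horizontal axes), with circles, squares and triangles for replicates 1 to 3 and a line at the group mean. The 21 mo libraries lie with the 18 mo libraries for Trpm6, with the O304 libraries for Herc3 and below both for Esrra, and they are widely spread for Pdk4 and Col18a1.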

How the data were processed

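Total RNA was extracted from mouse kidney with Trizol and made into libraries with a NEBNext Ultra RNA kit. Per the labels and the submitters' processing notes, the authors used HISAT2 2.0.5, featureCounts 1.5.0-p3 and DESeq2 1.20.0, with the mouse build GRCm38 (mm10). They deposited raw counts per gene and FPKM values in 1 table, with coordinates. Strand and multi-mapping settings are not given in the sources used here, so overlapping, antisense and near-identical genes are uncertain. The table also holds the authors' own fold changes, p-values and group means for other comparisons, and these were not used.

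The deposited counts of the 6 libraries were tested with R 4.3.3 and edgeR 4.0.16 (TMM scaling, filterByExpr at min.count 10 and min.total.count 15, quasi-likelihood F-test, 4 residual degrees of freedom). Benjamini-Hochberg adjustment ran over every gene tested, and the threshold was 0.05. SE is that of the log2 fold change. Libraries were grouped by their labels. DESeq2 1.42.0, voom with sample quality weights and limma-trend on log2(FPKM + 1) and log2(FPKM + 0.1) (mean FPKM 0.5 or more, limma 3.58.1) were alternatives, as were other normalizations and filters, a replicate block, all 9 libraries and leaving out each library in turn. Named were the protein-coding genes with the 12 largest rises and falls past the threshold, up to 5 members with the smallest p of each list described, and the genes the study assayed. Some genes that this rule names are not reported here. Genes outside this rule were named after their values were seen. These are mt-Tn, Hspa1a, the defining cell type markers and the other mitochondrial genes. The members and lists were chosen with earlier results of these data known. Depth was 16128242 to 18396725 counts per library. Intervals of counting error were not used, since the test covers the spread between libraries.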

Additional observations from a re-analysis of the deposited data

How the results depend on the processing

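The number of genes past the threshold depended on the method, while the direction of the 22 genes did not. Against 22 (10 higher, 12 lower), there were 795 with DESeq2 (366 higher, 429 lower), 186 with voom (67 and 119), 489 with no filter on low counts (216 and 273) and 78 with at least 10 counts in every library (31 and 47). All 22 were among the calls of each of these. There were 24 with upper-quartile normalization and 20 with size factors of DESeq2. There were 0 (0 higher, 0 lower) with all 9 libraries in edgeR (1536 at an unadjusted p under 0.05), 0 with limma-trend on log2(FPKM + 1) and 0 on log2(FPKM + 0.1) (2821 and 2823 at an unadjusted p under 0.05), and 0 at an adjusted p under 0.01. A log2 fold change of at least 1 in size left 13 (5 higher, 8 lower). An unadjusted p under 0.05, chosen after seeing the data, gave 3115 (1444 higher, 1671 lower). Leaving out 1 library gave 0 to 6 genes (0 to 4 higher, 0 to 3 lower). The share of higher genes among the calls was 46.0% with DESeq2, 36.0% with voom and 39.7% with at least 10 counts in every library. The cause of these differences was not tested.

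With the replicate number as a block, 6 genes passed (4 higher, 2 lower), 4 of them among the 22. The deviations of libraries with the same number correlated at 0.19, −0.14 and 0.15, and those of libraries with different numbers at −0.28 to 0.17. With so few values, taken as deviations from means of 3 libraries, whether the numbers pair the samples cannot be decided.

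Of the genes the study assayed, 3 changed sign. Sqstm1 turned to 0.021 with upper-quartile normalization, and it ranged from −0.087 to 0.058 when 1 library was left out. Acta2 turned to −0.29 with voom, −0.095 and −0.12 on log2(FPKM + 1) and log2(FPKM + 0.1) and −0.092 with the replicate block, and it ranged from −0.56 to 0.52 when 1 library was left out. H2afx ranged from −0.19 to 0.12 in those fits.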

Other observations

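Immunoglobulin genes lay mostly above their 18-month level. Of 429 gene segments, 215 were at 0 in all 6 libraries and 101 were tested. Of these 101, edgeR called 0, 39 were higher and 0 lower at an unadjusted p under 0.05, and 21 were higher with DESeq2. The summed CPM of the family was 1396, 682 and 1317 in the 18 mo libraries and 1443, 4557 and 2697 in the 21 mo/O304 libraries, so that replicate 1 of the treated group was close to the 18 mo range and replicate 2 far above it. Igkc, the constant region of the kappa light chain, was at 479, 269 and 443 CPM and at 603, 1633 and 1035 CPM (log2 fold change 1.46, adjusted p = 0.0929, edgeR).

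Genes for cytosolic ribosomal proteins lay on both sides. Of 82 tested, edgeR called 0, 19 were higher and 11 lower at an unadjusted p under 0.05, and 7 were higher and 1 lower with DESeq2, with a median of 0.01. Rpl23a was at 119, 104 and 110 CPM in the 18 mo group and at 144, 143 and 145 CPM in the 21 mo/O304 group (0.37). Among 26 tested chemokines and cytokines, edgeR called 0, 8 were higher and 2 lower at an unadjusted p under 0.05, and 4 were higher and 1 lower with DESeq2. Ccl9, a chemokine for myeloid cells, was at 5.24, 6.53 and 6.55 CPM and at 11.5, 15.9 and 18.9 CPM (1.34, adjusted p = 0.0545, edgeR). Among 31 tested genes of complement and coagulation, edgeR called 0, 6 were higher and 2 lower at an unadjusted p under 0.05, and 5 were higher and 2 lower with DESeq2.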
